A study of Homo sapiens with 6 samples.

Results

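The cytosolic ribosomal protein genes encode the protein part of the ribosome that translates nuclear messages. They were taken as every row whose gene symbol has the form RPL or RPS, an optional P, a number and an optional A, L or X, which gave 81 of the 58024 genes in the table. Of these, 49 belong to the large (60S) subunit, including the stalk proteins RPLP0, RPLP1 and RPLP2, and 32 belong to the small (40S) subunit. In the GENCODE v44 annotation, 80 of the 81 are protein-coding and RPS10L is a processed pseudogene. RPSA and FAU, which also encode ribosomal proteins, fall outside the symbol form and are described separately.

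RNA-Seq was compared between C4-2B parental cells and C4-2B enzalutamide resistant cells, with 3 libraries each. C4-2B is a castration-resistant human prostate cancer line descended from LNCaP through mouse xenografts, and enzalutamide is an androgen receptor antagonist. The resistant cells had been passaged through rising enzalutamide concentrations from 1 to 20 µM over at least 6 months and were then held at 5 µM, while the parental cells carried the vehicle dimethyl sulfoxide, given as 1% in the labels and as a lower concentration in the study's methods. RNA was extracted from cells in 10 µM enzalutamide, and the sources do not make clear whether the parental cells received that dose. The cells that survived selection were pooled, so the resistant model is a single mixed population. Nothing states that the libraries of a group came from separate cultures, so the p values measure the spread between these libraries, which may be technical.

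The depth was estimated at 1.33e+07 to 2.07e+07 reads per parental library and 1.46e+07 to 1.72e+07 per resistant library, and at these depths 1 read on a transcript of 500 bases is worth 0.161 to 0.249 FPKM (fragments mapped to a transcript, divided by its length in kilobases and by the library's depth). All 9 luminal prostate markers looked up were expressed in every library, 2 of them higher and 6 lower in the resistant cells. HOXB13, a prostate lineage factor, had 96.1 to 110 FPKM in the parental and 97.8 to 105 FPKM in the resistant cells, and the luminal keratin KRT8 had 125 to 155 and 160 to 179 FPKM. Of 10 markers of leukocytes, endothelium, stroma and basal cells, 5 were tested, 1 of them higher and 2 lower, with a median log2 difference of -1.49. The 5 not tested, among them PTPRC, CD3E, PECAM1 and KRT5, did not exceed 0.227 FPKM in any library, and the part of such genes in the results was not tested. The fibroblast gene DCN went from 0 in every parental library to 3.63 to 4.35 FPKM, while the pericyte gene PDGFRB and the endothelial gene VWF were lower, with log2 differences of -3.04 and -1.52. The collagen gene COL1A1 had 4.98 to 8.74 and 2.86 to 6.83 FPKM and CD68, a macrophage gene, at most 0.658 FPKM, and neither passed.

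Ribosomal proteins are assembled with ribosomal RNA in the nucleolus, the small subunit proteins around the 18S RNA and the large subunit proteins around the 28S, 5.8S and 5S RNAs, and a complete ribosome carries a single copy of most of them. Their messages are among the most abundant in growing cells and share a 5′ terminal oligopyrimidine (TOP) motif, a C at the first transcribed base followed by a run of C and T, through which mTOR and LARP1 adjust their translation. Several members have paralogs that are used in restricted tissues such as testis or muscle. Most members also have processed pseudogenes, copies of the spliced message that lie elsewhere in the genome and can take up reads of the parent gene.

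The sequences around the RefSeq transcription start (GRCh38.p14) show a run of this kind at the start of some members and none there in others. Each sequence has 40 bases in the direction of transcription, with the start after the first 20, and capitals mark a pyrimidine run that begins with a C within 2 bases of the start and goes on for at least 4 further C or T. The first 6 belong to genes that were higher in the resistant cells, at chr19:41860235-41860274 (plus strand), chr2:216498824-216498863 (plus), chr20:62387083-62387122 (plus), chr6:33272055-33272094 (plus), chr12:120201092-120201131 (minus) and chr1:6199576-6199615 (minus).
RPS19: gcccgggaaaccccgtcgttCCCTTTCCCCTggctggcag
RPL37A: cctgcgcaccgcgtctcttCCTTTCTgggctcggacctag
RPS21: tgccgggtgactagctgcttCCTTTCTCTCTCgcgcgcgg
RPS18: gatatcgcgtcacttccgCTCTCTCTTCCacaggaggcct
RPLP0: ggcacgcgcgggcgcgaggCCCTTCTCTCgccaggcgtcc
RPL22: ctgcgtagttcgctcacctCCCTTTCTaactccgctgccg

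The next 3 belong to genes that were lower in the resistant cells and carry the run as well, at chr19:55385912-55385951 (plus), chr3:197950170-197950209 (plus) and chr10:78033843-78033882 (plus). The last 3 were lower and have no such run within 2 bases of the RefSeq start, at chr15:63157458-63157497 (minus), chr14:46651762-46651801 (minus) and chr19:1438376-1438415 (plus). A run further from that start, as in the RPS15 letters, was not marked.
RPL28: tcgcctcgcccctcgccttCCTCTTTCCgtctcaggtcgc
RPL35A: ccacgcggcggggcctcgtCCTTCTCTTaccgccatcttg
RPS24: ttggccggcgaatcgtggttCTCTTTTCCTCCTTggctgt
RPS27L: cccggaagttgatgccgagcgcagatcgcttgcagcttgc
RPL10L: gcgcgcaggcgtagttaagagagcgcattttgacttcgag
RPS15: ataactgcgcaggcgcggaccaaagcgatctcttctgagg

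RefSeq windows of 300 bases were at hand for 63 of the 81 members, and a gene with several windows was counted if any of them held the motif. The run was present at the start of 49 of the 63 (77.8%), against 3557 of 27305 genes with a window (13.0%). By subunit it was present in 31 of 39 large subunit genes (79.5%) and 18 of 24 small subunit genes (75.0%). It was found in 18 of 20 members that were higher in the resistant cells, 12 of 18 that were lower and 19 of 24 that did not pass the threshold, so members with the run moved in both directions. CTTCCG, the core of ETS factor sites read on either strand, occurred in 40 of the 63 (63.5%) and in 22.6% of all genes. TATAAA, the core of a TATA box, occurred in 6 of the 63 (9.52%) and in 13.99% of all genes.

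The summed level of the members was higher in the resistant cells, while the level of the median member overlapped between the groups. The median member stood at 682, 635 and 619 FPKM in the parental libraries (replicates 0, 1 and 2) and at 624, 652 and 632 FPKM in the resistant cells. Their summed FPKM was 70373, 62898 and 64798 in the parental and 71204, 78563 and 74097 in the resistant libraries. The sum thus lay above every parental library in each resistant library, as did the members' share of all FPKM, which was 8.11%, 7.87% and 7.45% in the parental and 8.98%, 9.21% and 8.71% in the resistant libraries. Short non-coding RNA genes took 21.8% to 24.4% of the FPKM in the parental and 24.3% to 25.9% in the resistant libraries, and without them the members' share was 9.70% to 10.7% and 11.7% to 12.3%.

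The rise was uneven between the subunits. Small subunit genes summed to 21377, 19574 and 19258 FPKM in the parental cells and to 24557, 27202 and 25610 FPKM in the resistant cells, with no overlap between the groups. Large subunit genes summed to 48996, 43324 and 45539 FPKM and to 46647, 51361 and 48488 FPKM, and these ranges overlapped. The ratio of the large to the small subunit sum was 2.29, 2.21 and 2.36 in the parental cells and 1.90, 1.89 and 1.89 in the resistant libraries, 2.29 ± 0.0757 against 1.89 ± 0.00571 (SD, n = 3 each). The ratio also fell from 2.29 to 1.89 among members of at least 100 FPKM. It was a value without a test, and an exact permutation test of 3 libraries against 3 cannot go below p = 0.1.

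**Figure D1:**
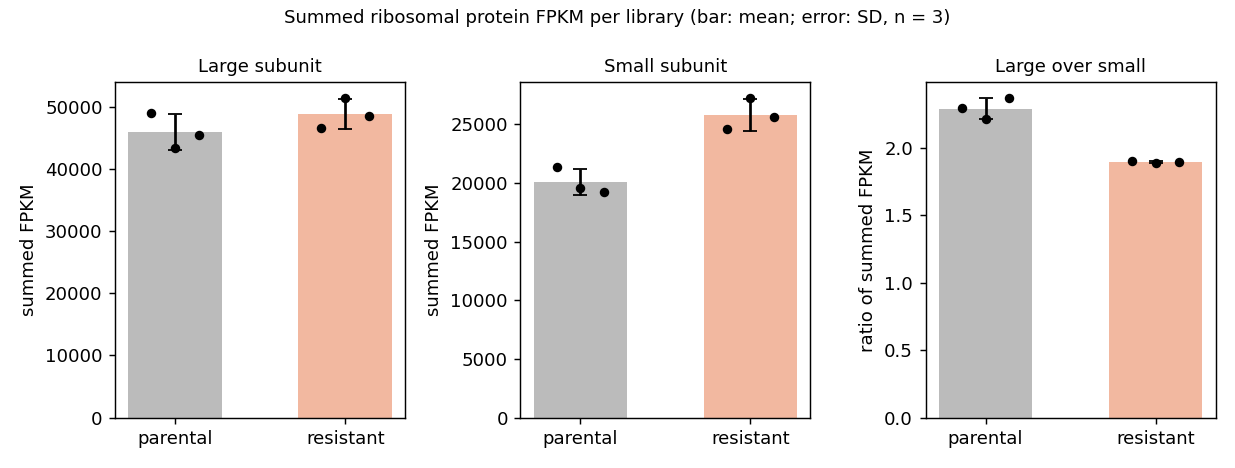
Summed FPKM of the large subunit genes, of the small subunit genes and the ratio of these sums in each library, with bars for the mean and error bars for the SD over 3 libraries. The small subunit sums do not overlap between the groups, the large subunit sums do, and the ratio falls from a mean of 2.29 to a mean of 1.89.

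A few abundant genes carried much of this shift. RPS19 alone made up 24.8% of the FPKM gained by the 21 small subunit genes with a higher mean, and without this gene, chosen after its values were seen, the ratio was 2.33 to 2.49 in the parental and 2.11 to 2.12 in the resistant libraries, a difference of -0.29 in place of -0.40. The 3 small subunit genes that gained most made up 54.9% of the gain. In the large subunit, RPL37A, RPLP2 and RPL30 made up 55.2% of the 7571 FPKM gained by 23 genes, while the sum of the other 26 fell by 4692 FPKM, most of all RPL26, RPL4 and RPL35A.

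Gene by gene, the groups were compared with limma on log2(FPKM + 0.1) over 24468 genes, and a gene is called higher or lower at a Benjamini-Hochberg adjusted p (two-sided) below 0.05. Of the 80 members tested, 30 were higher, 19 lower and 31 did not pass, so 61.2% were called against 44.4% of all genes tested. In the upward direction the background was 22.1% and in the downward direction 22.3%. Abundant genes were called more often in general: among tested genes that averaged 100 FPKM or more, 68.8% were called, 29.1% as higher and 39.7% as lower. The 64 members above that level had 24 higher and 14 lower, a share of 59.4%. The median log2 difference was 0.10 for the members, 0.09 for those of at least 100 FPKM, -0.05 for all genes and -0.14 for all genes of at least 100 FPKM.

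The subunits differed in their counts. Of 31 small subunit genes tested, 16 were higher and 4 lower, with a median log2 difference of 0.33. Of 49 large subunit genes, 14 were higher and 15 lower, with a median of -0.05 that turned positive, to between 0.01 and 0.16, under each of the 4 other scalings of the libraries tried. With upper quartile scaling, which moved the median of all genes by 0.20, the members had 32 higher and 4 lower, the large subunit 15 and 3 and the small subunit 17 and 1. All 3 resistant values lay above all 3 parental values in 33 members and below them in 24, against 26.6% and 28.1% of all genes. Thus 57 members had groups apart where 54.8% of all genes did, and the groups overlapped in 23 members. Abundant genes had groups apart more often in general: of 1152 genes of at least 100 FPKM, 369 lay above and 501 below. The 64 members at that level had 26 above and 18 below. Differences of at least 2-fold past the threshold were found in 11 members, 8 higher and 3 lower, where 28.5% of all genes tested passed both criteria.

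**Figure D2:**
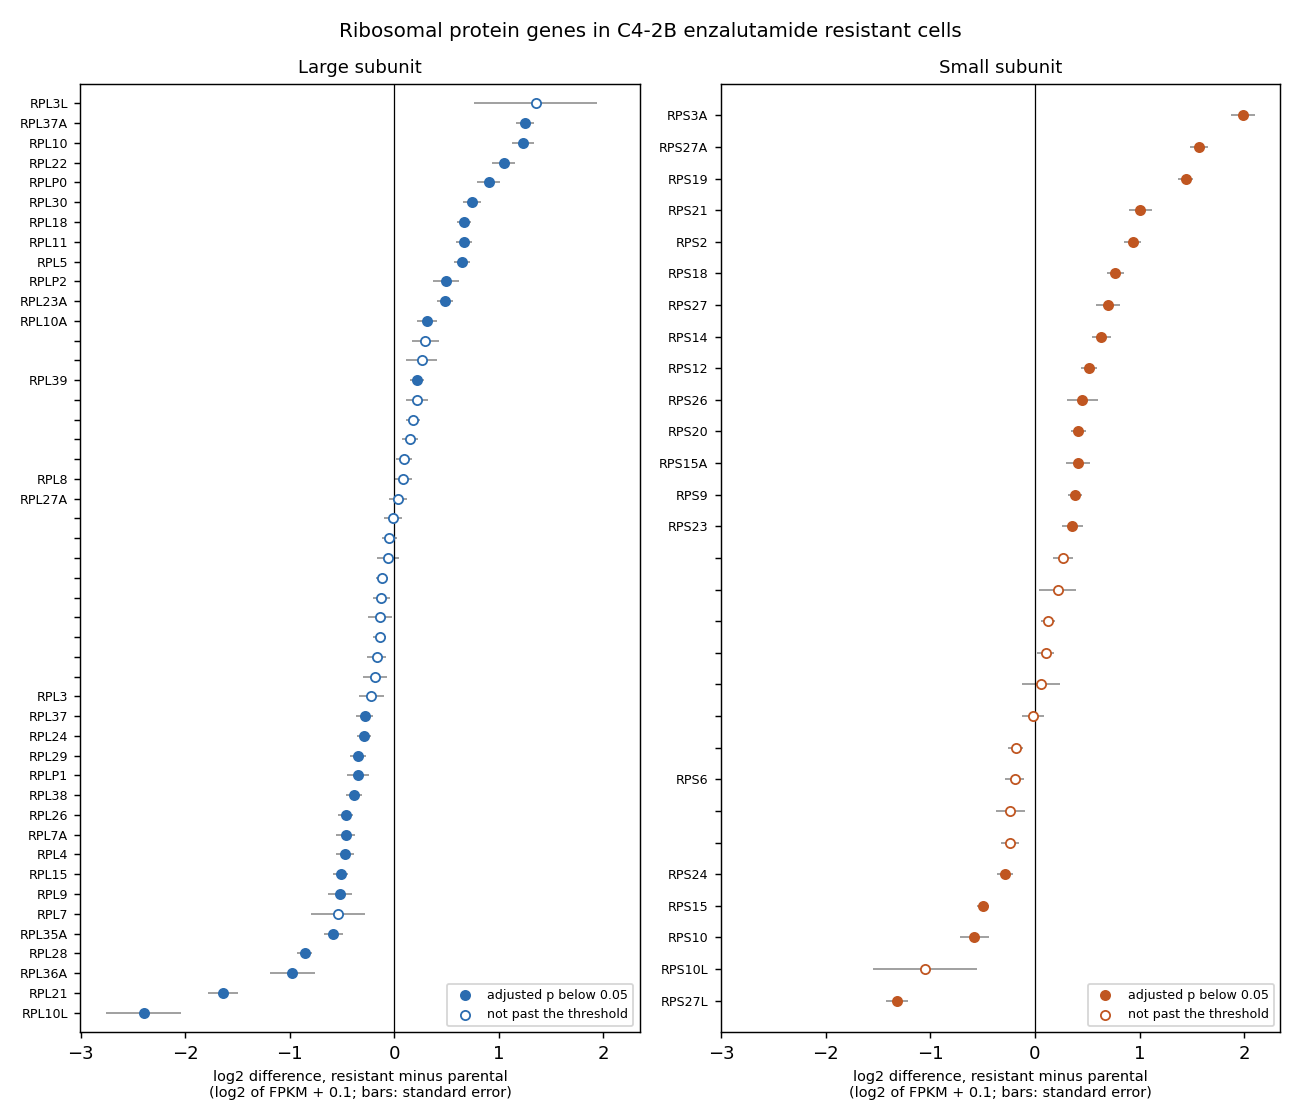
The log2 difference of tested members, resistant minus parental, with bars for the standard error of the limma fit, in panels for the large and the small subunit, and with filled points for genes with an adjusted p below 0.05. RPL39L, at 7.69, is left out to keep the scale readable, a few other members are not drawn, and only genes named in the text are labelled. Small subunit points lie mostly to the right of 0, and large subunit points lie on both sides.

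RPS19 gained the most FPKM of any small subunit gene. RPS19, whose mutation is a cause of Diamond-Blackfan anaemia and whose product is needed for 18S RNA maturation, lies on chromosome 19 (GRCh38, 41860255 to 41872925). It had 1044, 962 and 984 FPKM in the parental cells and 2563, 2884 and 2674 FPKM in the resistant cells. Every resistant value was more than any parental one, a log2 difference of 1.44 (standard error 0.07, limma, Benjamini-Hochberg adjusted p = 3.16e-05) that stayed between 1.39 and 1.65 over all alternatives tried. Its start sequence, printed first above, carries the pyrimidine run.

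RPS27A, which encodes ubiquitin fused to a small subunit protein and is one source of cellular ubiquitin, rose from 69.0, 62.3 and 71.6 FPKM to 187, 218 and 198 FPKM. Its groups were far apart, with a log2 difference of 1.57 (standard error 0.09, limma, Benjamini-Hochberg adjusted p = 4.94e-05). FAU, the fusion of a ubiquitin-like protein with the small subunit protein eS30, fell from 1348, 1307 and 1389 FPKM to 1072, 1236 and 1085 FPKM, a log2 difference of -0.26. RPSA, a small subunit protein also known as the laminin receptor, rose from 179, 152 and 166 FPKM to 218, 215 and 211 FPKM, a log2 difference of 0.38.

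RPS21, a small protein specific to eukaryotic ribosomes, had 1130, 1107 and 882 FPKM in the parental cells and 2018, 2197 and 2024 FPKM in the resistant cells, a log2 difference of 1.01. RPS2, a protein of the mRNA entry region, rose from 433, 471 and 403 FPKM to 808, 884 and 802 FPKM, a log2 difference of 0.93. RPS18, at the head of the small subunit, rose from 1039, 963 and 890 FPKM to 1550, 1752 and 1619 FPKM, a log2 difference of 0.77. None of these 3 genes overlapped between the groups, and their adjusted p values in the limma fit with Benjamini-Hochberg adjustment ran from 2.43e-04 to 6.18e-04. The other small subunit genes that passed upward included RPS14, which is lost in the 5q- form of myelodysplastic syndrome, with a log2 difference of 0.64, and RPS12, RPS20, RPS15A, RPS9 and RPS23, between 0.36 and 0.52.

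Only 4 small subunit genes were called lower. RPS27L, a paralog of RPS27, fell from 205, 199 and 224 FPKM to 73.5, 92.9 and 85.8 FPKM, with a log2 difference of -1.32 (standard error 0.10, limma, Benjamini-Hochberg adjusted p = 1.67e-04). RPS15, a protein of the subunit's head needed for its export from the nucleus, fell from 571, 564 and 545 FPKM to 379, 409 and 402 FPKM, a log2 difference of -0.50. RPS10 had 13.2, 15.8 and 15.5 FPKM in the parental and 9.11, 11.5 and 9.20 FPKM in the resistant cells, a log2 difference of -0.58. The groups of these 3 genes did not overlap. With upper quartile scaling RPS15 and RPS10 had log2 differences of -0.29 and -0.37 and did not pass, and RPS10 also lost its call without parental replicate 2 (-0.55), resistant replicate 0 (-0.52) or resistant replicate 2 (-0.53). RPS24, another gene mutated in Diamond-Blackfan anaemia, had 1909, 1699 and 1772 FPKM against 1363, 1519 and 1519 FPKM, a log2 difference of -0.29 (limma, Benjamini-Hochberg adjusted p = 0.0236), and its call was lost in 9 alternatives besides the 2-fold criterion, among them parental replicates 0 or 2 (-0.24 and -0.30) and resistant replicates 0 or 2 (-0.24 and -0.32) left out. RPS6, the substrate of S6 kinase, did not pass: it had 1977, 1696 and 1855 FPKM against 1483, 1698 and 1646 FPKM, with overlapping groups.

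RPL37A gained the most FPKM of any member. RPL37A, a zinc finger protein of the 60S subunit, lies on chromosome 2 (GRCh38, 216498825 to 216579180). It had 1844, 1648 and 1605 FPKM in the parental and 3780, 4340 and 3983 FPKM in the resistant cells, which brought it to the highest mean level of any member in the resistant cells. The log2 difference was 1.25 (standard error 0.09, limma, Benjamini-Hochberg adjusted p = 1.06e-04), and no values overlapped.

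RPL10, a late-assembling protein close to the peptidyl transferase centre, rose from 265, 216 and 211 FPKM to 503, 573 and 544 FPKM, a log2 difference of 1.23. RPL30, a small protein of the 60S interface, rose from 1218, 1195 and 1099 FPKM to 1934, 2145 and 1817 FPKM, a log2 difference of 0.75. The resistant values lay above the parental values in both genes. RPL5 and RPL11, which bind 5S RNA and enter the ribosome together with it, rose together, RPL5 from 373, 347 and 360 FPKM to 517, 577 and 601 FPKM and RPL11 from 683, 660 and 667 FPKM to 986, 1154 and 1054 FPKM. Their log2 differences were 0.65 and 0.67, with adjusted p values of 8.15e-04 and 6.54e-04 in the limma fit with Benjamini-Hochberg adjustment. Both genes were picked once their values were known. RPL18, RPL23A and RPL10A were called higher as well, with log2 differences of 0.67, 0.48 and 0.31.

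The stalk proteins, which recruit elongation factors, did not move together. RPLP0, the stalk base, rose from 974, 783 and 752 FPKM to 1514, 1594 and 1552 FPKM, a log2 difference of 0.90. RPLP2 rose from 2978, 2171 and 2740 FPKM to 3581, 3808 and 3657 FPKM, a log2 difference of 0.50 (limma, Benjamini-Hochberg adjusted p = 0.0179). RPLP1, the partner of RPLP2 in the stalk dimers, fell from 2402, 1867 and 2021 FPKM to 1711, 1614 and 1598 FPKM, a log2 difference of -0.35 (same fit and adjustment, adjusted p = 0.0350). For all 3 genes the groups did not overlap, and RPLP2 lost its call without resistant replicate 1 (0.47) or resistant replicate 2 (0.50), and with a replicate block or without the variance trend (0.50 in both). RPLP1 was not followed singly over the alternatives. With upper quartile scaling most large subunit genes called lower lost that call, so the fall of RPLP1 depends on the scaling used.

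Among large subunit genes that averaged 100 FPKM or more, RPL28 had the lowest log2 difference. It lies on chromosome 19 (GRCh38, 55385932 to 55403250) and had 843, 724 and 797 FPKM in the parental and 434, 423 and 447 FPKM in the resistant cells. Its log2 difference was -0.86 (standard error 0.07, limma, Benjamini-Hochberg adjusted p = 2.41e-04), and the groups were well apart. RPL35A, a further Diamond-Blackfan gene, fell from 1561, 1318 and 1521 FPKM to 933, 1046 and 957 FPKM, a log2 difference of -0.58. Its start carries a pyrimidine run, as does that of RPL37A, and a link between the run and the RNA level was not tested. RPL26, at the exit of the peptide tunnel, fell from 2244, 2021 and 2107 FPKM to 1459, 1620 and 1547 FPKM, a log2 difference of -0.46. With upper quartile scaling RPL35A and RPL26 had log2 differences of -0.37 and -0.26 and did not pass. RPL4, RPL7A, RPL15, RPL38, RPL29, RPL24 and RPL37 were also called lower, with log2 differences from -0.51 to -0.28. These genes were not followed singly over the alternatives, and most large subunit genes called lower did not pass with upper quartile scaling.

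Of the 4 members with the highest means, RPLP2 and RPL37A were called higher and RPL27A and RPL8 did not pass. RPL27A, with the highest mean over the 6 libraries, had 3572, 3063 and 3447 FPKM in the parental and 3317, 3602 and 3401 FPKM in the resistant cells, a log2 difference of 0.04 with a standard error of 0.08. RPL8, a protein near the peptidyl transferase centre, had 2965, 2928 and 2663 FPKM against 2794, 3282 and 2987 FPKM, a log2 difference of 0.08 with a standard error of 0.09. In both genes the groups overlapped. RPL3, which reaches towards the same centre, had 1595, 1203 and 1520 FPKM against 1147, 1265 and 1269 FPKM, a log2 difference of -0.22 that did not pass, although it did without parental replicate 1 (-0.35) and with quantile normalization (-0.30).

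Paralogs gave the largest relative differences of the list. RPL39L, a paralog of RPL39 known from male germ cells, lies on chromosome 3 (GRCh38, 187120948 to 187180908). It had 0.226, 0.240 and 0 FPKM in the parental cells and 47.3, 48.6 and 42.3 FPKM in the resistant cells. The parental values are at the level of very few reads, so the log2 difference of 7.69 (standard error 0.49, limma, Benjamini-Hochberg adjusted p = 7.24e-05) depended on the pseudocount and ran from 5.35 to 9.10 over the alternatives. RPL39 itself had 578, 537 and 505 FPKM against 637, 622 and 623 FPKM, a log2 difference of 0.22 (same fit and adjustment, adjusted p = 0.0393) that lost its call in 9 alternatives besides the 2-fold criterion, also with any library but parental replicate 0 left out (0.17 to 0.23). RPL39L thus made up 0.0279% ± 0.0243 of the FPKM of the pair in the parental cells and 6.84% ± 0.448 in the resistant cells (SD, n = 3 each).

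RPL22L1, the paralog of the RNA-binding protein RPL22, was listed far above RPL22 and fell from 858, 796 and 748 FPKM to 305, 348 and 321 FPKM, a log2 difference of -1.30 (limma, Benjamini-Hochberg adjusted p = 6.83e-05). RPL22 rose from 24.1, 28.6 and 22.4 FPKM to 53.3, 49.3 and 52.1 FPKM, a log2 difference of 1.05. The share of RPL22L1 in the pair went from 97.0% ± 0.387 to 86.3% ± 1.25 (SD, n = 3 each). RPS27L and RPS27 also moved in opposite directions, with RPS27L the higher in every library: RPS27 was listed at 8.69 to 9.72 FPKM in the parental and 16.1, 15.1 and 13.5 FPKM in the resistant cells, and the share of RPS27L went from 95.8% ± 0.0241 to 84.8% ± 2.45. In both pairs each resistant share lay below each parental share. RPL22, with 5 pseudogene entries, and RPS27, with 14, belong to a low class of members described below, whose values are uncertain. The shares of both pairs are therefore uncertain, and the SDs cover only the spread between libraries.

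RPL10L, an intronless copy of RPL10 known from testis, fell from 2.62, 2.79 and 4.20 FPKM to 0.614, 0.311 and 0.684 FPKM, a log2 difference of -2.40 (standard error 0.36, limma, Benjamini-Hochberg adjusted p = 0.00234), while RPL10 rose. RPL3L, the muscle paralog of RPL3, stayed under 1 FPKM in every library, with 0.285, 0 and 0.181 FPKM against 0.476, 0.507 and 0.417 FPKM, and did not pass (adjusted p = 0.109 in the same fit and adjustment). RPL36AL fell from 169, 152 and 173 FPKM to 93.1, 102 and 105 FPKM, and RPL36A from 14.8, 13.9 and 17.0 FPKM to 8.39, 5.64 and 9.58 FPKM, so that the share of RPL36AL was 91.5% ± 0.463 and 92.7% ± 1.79. The fall of RPL36A did not pass with upper quartile scaling (-0.77). RPL36A, with 18 pseudogene entries, is in the same low class, so its share of the pair is uncertain as well. RPL7L1, a paralog of RPL7, had a log2 difference of -0.78, and RPL26L1, a paralog of RPL26, had one of -0.92 that lost its call in 12 alternatives besides the 2-fold criterion, also with any library but resistant replicate 0 left out (-1.07 to -0.69).

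**Figure D3:**
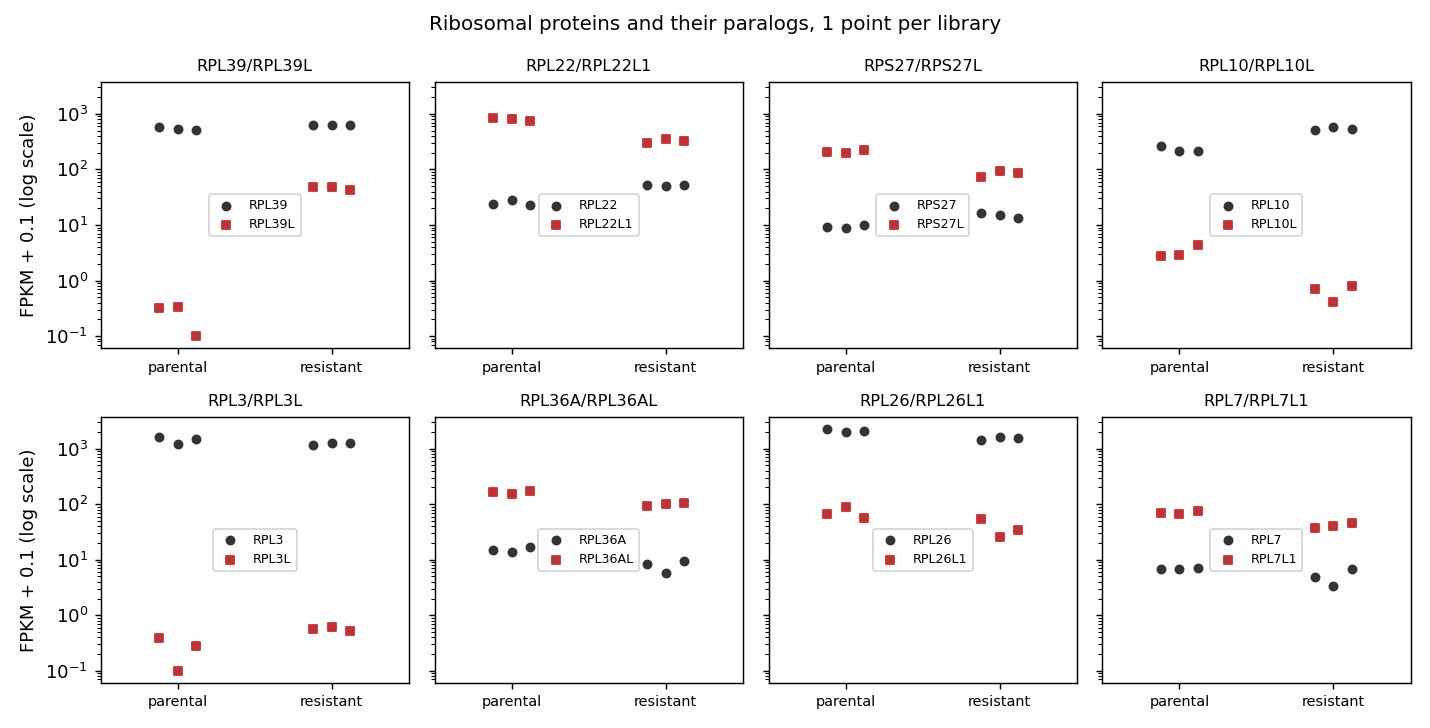
FPKM of ribosomal proteins and their paralogs in each library, on a log axis with 0.1 FPKM added, with circles for the first gene of the pair and squares for the paralog. RPL39L rises from at most 0.240 to at least 42.3 FPKM, RPL22L1 and RPS27L fall as RPL22 and RPS27 rise, and RPL10L falls as RPL10 rises.

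Levels differed widely between members, although a ribosome holds most of them in equal number. FPKM is scaled to transcript length, and the 64 members with a mean of at least 100 FPKM spanned 134 to 3400 FPKM, a 25.3-fold range. The other 17 members had means from 0 to 61.7 FPKM. RPS29, which is protein-coding, was listed at 0 in all 6 libraries and was not tested. RPS27, RPS26, RPS3A, RPL7, RPL9, RPL21, RPL22 and RPL36A also fell in this low class. Pseudogene entries named after the gene numbered 10 at the median in the low class and 5 in the other, with ranges of 0 to 61 and 0 to 93. Over the 80 tested members, which share the same libraries, Spearman's rho between the number of entries and the mean FPKM was -0.21 and Pearson's r was -0.30. How the authors assigned reads that match several places is not given in the sources used here, so the values of these members are uncertain.

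**Figure D4:**
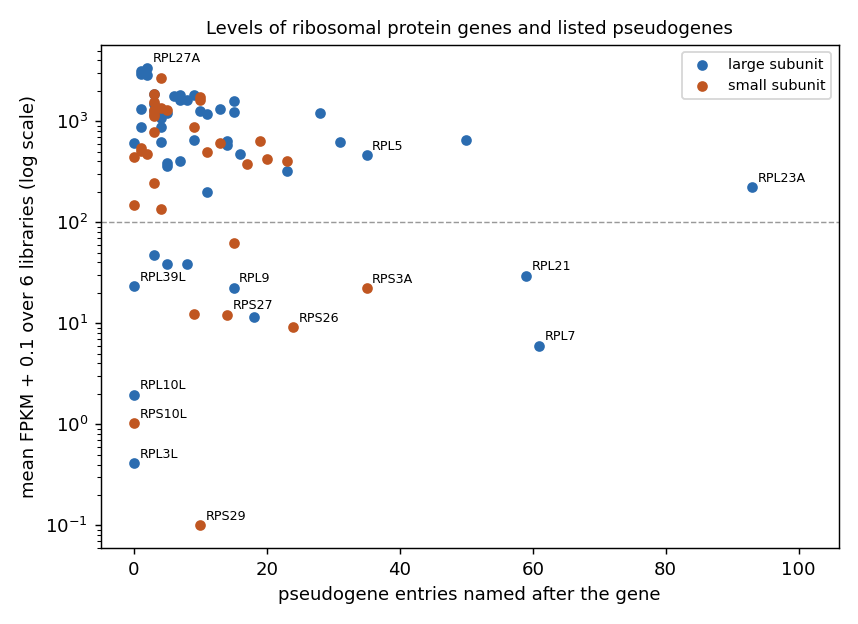
Mean FPKM of each of the 81 members over the 6 libraries, on a log axis with 0.1 FPKM added, against the number of pseudogene entries in the table named after it, coloured by subunit, with a dashed line at 100 FPKM. Members without entries stand at both high and low levels, as do members with many, and RPS29 lies at the bottom.

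Some large relative differences were in this uncertain class. RPS3A, a small subunit protein with 35 pseudogene entries, rose from 10.1, 8.47 and 8.17 FPKM to 35.3, 37.4 and 34.2 FPKM, a log2 difference of 1.99 (standard error 0.11, limma, Benjamini-Hochberg adjusted p = 5.07e-05). RPL21, a large subunit protein with 59 entries, fell from 43.1, 49.0 and 41.2 FPKM to 15.5, 11.8 and 15.5 FPKM, a log2 difference of -1.64 (same fit and adjustment, adjusted p = 2.28e-04). RPL9 fell from 30.0, 23.7 and 25.8 FPKM to 18.4, 17.5 and 19.2 FPKM, a log2 difference of -0.52 that did not pass with upper quartile scaling (-0.31). RPL9P9, a pseudogene of RPL9 on chromosome 15 that was chosen after its values were seen, stood higher than RPL9 and moved the other way, from 33.0, 44.1 and 27.5 FPKM to 90.7, 116 and 88.3 FPKM, a log2 difference of 1.51. RPL7, with 61 entries, had 6.79, 6.79 and 7.05 FPKM against 4.83, 3.27 and 6.58 FPKM and did not pass, although it did without resistant replicate 2 (-0.77). Of 1004 ribosomal protein pseudogenes in the table, 307 were tested, with 26 higher, 22 lower and a median log2 difference of 0.01. Thus 15.6% of them were called, against 44.4% of all genes tested. The part of reads shared with the pseudogenes in the results was not tested. Leaving the low class out kept the split between the subunits, with 13 higher and 3 lower among 25 small subunit genes and 11 and 11 among 39 large subunit genes.

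The members are spread over the genome, and 12 of those tested lie on chromosome 19. There, 6 members were higher and 2 lower with a median log2 difference of 0.19, while the other 1616 tested genes of the chromosome had 375 higher, 363 lower and a median of -0.06. On all other chromosomes, 24 members were higher and 17 lower. Across the 80 tested members, the log2 difference had a Spearman's rho of -0.08 with exonic length and 0.04 with mean level.

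The mitochondrial ribosome has its own nuclear-encoded proteins. Of 78 mitochondrial ribosomal protein genes, 14 were higher and 36 lower in the resistant cells, with a median log2 difference of -0.26, and both subunits were below 0 at the median, the large at -0.32 and the small at -0.11. MRPL41 went from 163, 173 and 141 FPKM to 57.0, 55.1 and 50.6 FPKM, a log2 difference of -1.55, and MRPL57 and MRPL47 had log2 differences of -1.57 and -1.14. No gene of this list was higher by 2-fold or more. Of all genes tested, 22.1% were called higher and 22.3% lower. The counts and medians of this list were taken with the main scaling only, and upper quartile scaling moved the median of all genes by 0.20.

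Genes that build the cytosolic ribosome were lower more often than higher. Of 56 ribosome biogenesis factors, 11 were higher and 22 lower, with a median log2 difference of -0.22. The shares over all genes tested were 22.1% higher and 22.3% lower. With upper quartile scaling the median of all genes moved by 0.20, and the lists of this paragraph were not recounted under it. NPM1, the abundant nucleolar chaperone, fell from 1342, 1070 and 1358 FPKM to 532, 560 and 604 FPKM, a log2 difference of -1.15. RRS1, which helps to load 5S RNA with RPL5 and RPL11, fell by 1.20 on the log2 scale, and the nucleolar helicase DDX21 by 0.66. Among 14 genes of RNA polymerase I and its factors, 5 were higher and 5 lower, with a median of -0.08. In that list the promoter factor subunits TAF1B and TAF1D had log2 differences of 1.53 and -0.99, and the polymerase subunit POLR1E had one of -0.67. Of 9 genes listed as chaperones for ribosomal proteins, not all of them dedicated to these, 3 were higher and 3 lower. Among the higher were GRWD1 and PDCD2, which attend RPL3 and RPS2, at 0.66 and 0.55. The lower were NACA, BTF3 and BCCIP, at -0.47, -0.46 and -0.37, and NACA is also counted among the TOP genes below.

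Other genes whose messages carry the TOP motif, mainly translation factors, were taken from a list of known cases. Of 19 such genes, 6 were higher and 10 lower, with a median log2 difference of -0.30. Over all genes tested the shares were 22.1% and 22.3%, and over those of at least 100 FPKM 29.1% and 39.7%. This list was not recounted under the other scalings either. EEF2, the elongation factor that moves the ribosome along the message, fell from 4278, 3568 and 4496 FPKM to 1732, 1777 and 1926 FPKM, a log2 difference of -1.18. PABPC1, the poly(A) binding protein, fell from 1623, 1626 and 1624 FPKM to 616, 688 and 673 FPKM, a log2 difference of -1.30. Their adjusted p values were 2.72e-04 and 3.07e-05 in the limma fit with Benjamini-Hochberg adjustment, and neither gene overlapped between the groups.

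Regulators of these messages formed a list of 14 genes, of which 1 was higher and 6 lower, with a median log2 difference of -0.28. Among all genes tested, 22.1% were higher and 22.3% lower. The regulators too were counted with the main scaling only. LARP1, which binds the TOP motif, fell from 193, 175 and 176 FPKM to 81.9, 85.9 and 85.1 FPKM, a log2 difference of -1.10 (limma, Benjamini-Hochberg adjusted p = 6.23e-05). EIF4EBP1, the translation repressor that mTOR inactivates, fell from 212, 199 and 227 FPKM to 93.7, 102 and 85.5 FPKM, a log2 difference of -1.18. MLST8, an mTOR partner, had a log2 difference of -0.49. RNA levels alone were measured, and neither translation nor the protein content of ribosomes was analysed here.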

How the data were processed

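RNA-Seq of 3 C4-2B parental and 3 C4-2B enzalutamide resistant libraries was analysed. Per the methods, single-end 50 bp reads went through TrimGalore 0.4.3 and were mapped to GRCh38 by STAR 2.5.3, and the table the authors deposited was made by Cufflinks 2.2.1 on GENCODE 25. It names no unit, and the deposited values were taken as FPKM from the methods and the form of the values. The submitters' processing notes also list Trimmomatic 0.27, FastQC 0.10.1 and the mouse build mm10, whose roles are not given. No read counts were at hand, so depth was estimated from the smallest values on genes with a single transcript, assuming fragments of 200 bases, and no counting interval is given.

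The groups were compared by limma 3.58.1 (R 4.3.3; lmFit, eBayes with trend) on log2(FPKM + 0.1), without further scaling, for 24468 genes that averaged at least 0.1 FPKM. P values were two-sided with Benjamini-Hochberg adjustment and a threshold of 0.05. A fold change on this scale understates the change of low genes. The fit was tested on simulated data. Subunits were compared by sums, counts and medians, without a test. Python 3.11.15 was used with pandas 2.3.3, numpy 2.4.6, scipy 1.17.1 and matplotlib 3.10.9. Gene positions, types and exonic lengths came from GENCODE 44 and start sequences from RefSeq.

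The genes named were, per subunit, the 6 that rose most and the 6 that fell most among those past the threshold, the 4 with the highest mean, members not tested, paralogs with their counterparts, the listed genes outside the symbol form, and the 3 genes of each other list with the smallest adjusted p, some of which are left out. Genes that the rule does not cover appear as further members of a count, as marker genes or as chosen after their values were seen. The members, lists and rules were chosen with earlier results of these data known. Alternatives were tried for the pseudocount, the low-value filter, the scaling (4 others), the variance trend, a replicate block, each library left out, a 2-fold criterion and the choice of members. The replicate numbers in the titles did not pair the libraries.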

Additional observations from a re-analysis of the deposited data

How the results depend on the processing

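The median log2 difference of the members (0.10) was 0.16 when libraries were rescaled without short RNA genes, 0.20 with median ratio scaling and 0.30 with upper quartile scaling, and it ran from 0.060 to 0.15 with each library left out. That of the large subunit (-0.05) was 0.052 and 0.16 under the same last 2 scalings, and that of the small subunit (0.33) was 0.53 with upper quartile scaling. Upper quartile scaling moved the median of all genes from -0.05 to 0.14 and left 4 members lower, 3 of the large and 1 of the small subunit. Counts and medians of the related gene lists were not taken under the other scalings, so their dependence on the scaling was not tested. With each library left out, 23 to 30 members were higher and 15 to 20 lower, and 2 to 4 small subunit genes were lower, with 2 without resistant replicate 0 and 2 without resistant replicate 2. A 2-fold criterion left 8 members higher and 3 lower, 4 and 2 in the large and 4 and 1 in the small subunit. The ratio of the subunit sums fell by 0.29 in place of 0.40 without RPS19, an alternative added after the data were seen, and by 0.36 to 0.43 with each library left out. RPL27A (0.04) ran from -0.030, without parental replicate 1, to 0.081 with each library left out, and RPS6 turned to 0.012 with upper quartile scaling, and neither passed the threshold in the full comparison. The numbers in the titles did not pair the libraries, with correlations of same-numbered deviations of 0.01, 0.02 and -0.003, and a replicate block gave 24 members higher and 14 lower. Both directions kept within 1.5 times their count without a filter on low values, with 26 higher and 16 lower, and without the variance trend, with 22 higher and 14 lower. FPKM without counts limits what can be said of members at a few reads, such as RPL39L in the parental cells, and of members that share reads with pseudogenes. The causes were not tested.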
